A study of Mus musculus with 2 samples.

Results

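A set of 9 genes of the follicular programme of CD4 T cells, Bcl6, Cxcr5, Il21, Sostdc1, Tox2, Tox, Tbc1d4, Ascl2 and Maf, was described in RNA-seq of inflammation-experienced regulatory T cells. All 9 were found by symbol among the 55536 GENCODE M21 genes of the large gene tables, with 34 of their transcripts in the transcript tables, and all 9 were matched by identifier in the small gene tables. The cells were primary cells from male mice aged 7 weeks that, per the labels, had originated from activated regulatory T cells. The labels name no genotype, strain, treatment or untreated group, and do not say how inflammation was induced or whether animals were pooled. Polyadenylated RNA of 1 biological replicate was made into 2 technical libraries, called library 1 and library 2. The libraries held 26593267 and 22036331 expected counts over GENCODE genes, where an expected count is an estimate that shares reads among transcripts. The small gene tables hold whole-number counts on the older GENCODE M4 annotation. SDs therefore describe 2 libraries of what the labels give as 1 biosample, and spread from animal to animal was not measured.

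The genes were chosen by name with the values of these libraries already known, among them the higher Cxcr5 and Il21 of library 1. Differences between the libraries are for that reason given as descriptions, with no test. Their 95% intervals are exact binomial (Clopper-Pearson) and cover counting error only. The libraries also stood apart in genes of other cells: the summed TPM (a level corrected for gene length and library depth) of 7 erythroid markers was 8511 in library 1 and 94.7 in library 2, and that of 10 macrophage markers was 10.2 and 90.2. That both libraries hold the same cells rests on the labels alone and was not tested, so an SD or a ratio may hold more than the spread between technical repeats. A ratio needs both libraries, so none can be given without 1 of them, and each library's own values are given throughout.

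Follicular helper T cells enter B cell follicles and help B cells through the germinal centre reaction, and follicular regulatory T cells use much of the same programme to restrain that reaction. The repressor Bcl6 is required by both, and the chemokine receptor Cxcr5 draws them towards the Cxcl13 of the follicle. The cytokine Il21 acts on germinal centre B cells and is made mainly by the helper cells. In mouse T cells the basic helix-loop-helix factor Ascl2 can turn on Cxcr5, and Maf, a basic leucine zipper factor, promotes Il21 and Il4. Tox and Tox2 are HMG-box DNA-binding proteins of one family. Sostdc1 is a secreted antagonist of Wnt and BMP signals, and Tbc1d4 is a Rab GTPase-activating protein known for controlling glucose transporter traffic.

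The sequences before the start sites of Bcl6, Il21, Tox2 and Ascl2 are shown because these genes differed between the libraries to very different degrees, from Bcl6, with a small difference, to Ascl2, with 0 counts in library 2. They are RefSeq sequences of GRCm38.p6, the sequence of mm10, read in the direction of the gene and ending before its first annotated transcript start. Each window gives the gene's own strand, minus for Bcl6 (chr16:23988867-23989102), Il21 (chr3:37232637-37232886) and Ascl2 (chr7:142969265-142969514) and plus for Tox2 (chr2:163202877-163203057). Capitals mark TTCNNNGAA, the letters that STAT proteins recognise, or TGCTGA, the core letters that Maf recognises.
Bcl6: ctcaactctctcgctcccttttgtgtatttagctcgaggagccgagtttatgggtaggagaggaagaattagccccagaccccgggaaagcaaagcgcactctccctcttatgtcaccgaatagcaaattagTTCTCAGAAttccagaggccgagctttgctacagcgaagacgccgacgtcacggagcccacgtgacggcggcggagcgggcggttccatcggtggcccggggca
Il21: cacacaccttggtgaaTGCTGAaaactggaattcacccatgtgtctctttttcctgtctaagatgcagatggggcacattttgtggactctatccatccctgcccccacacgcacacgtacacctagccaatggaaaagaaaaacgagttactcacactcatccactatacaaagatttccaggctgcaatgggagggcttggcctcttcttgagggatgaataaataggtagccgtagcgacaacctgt
Tox2: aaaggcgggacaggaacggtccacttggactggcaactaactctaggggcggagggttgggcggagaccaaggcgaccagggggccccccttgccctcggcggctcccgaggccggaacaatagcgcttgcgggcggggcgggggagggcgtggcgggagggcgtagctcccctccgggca
Ascl2: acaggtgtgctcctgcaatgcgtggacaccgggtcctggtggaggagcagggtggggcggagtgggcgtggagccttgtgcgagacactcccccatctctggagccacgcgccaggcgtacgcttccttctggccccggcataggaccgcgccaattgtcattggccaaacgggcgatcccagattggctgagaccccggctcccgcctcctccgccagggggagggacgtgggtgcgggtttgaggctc

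The search covered the 250 bases before each RefSeq start on both strands, in 32851 windows of all genes. TTCNNNGAA was found 118 bases before the Bcl6 start, and 7.02% of all windows held it. TGCTGA was found 234 bases before the Il21 start, and 16.1% of all windows held it. The E-box CAGCTG, letters bound by Ascl2-type factors and present in 13% of all windows, was found before none of the 5 genes with a window (Bcl6, Il21, Tox2, Tbc1d4 and Ascl2). GGAAA, the core bound by NFAT, was in 55.6% of all windows, and the Il21 window held it 3 times and the first Bcl6 window 1 time. It was absent before the first Tox2 start, and the overlapping windows of the Tox2 starts at 163225453 and 163225454 each held it 1 time. G and C made up 75.2% of the 250 bases before the first Tox2 start, 67.6% for Ascl2, 58.4% for Bcl6, 54.8% for Tbc1d4 and 47.6% for Il21. A second Bcl6 start in RefSeq, inside the gene at position 23981283, is preceded by letters of the site that Bcl6 itself binds, TTCCTNGAA, which 1.31% of all windows held and which is a special case of TTCNNNGAA. That window held TTCNNNGAA 3 times, 168, 122 and 88 bases before the start, the first being this site, and GGAAA 3 times. The stretch of 29 bases around the first (chr16:23981433-23981461, minus strand) is printed with the site in capitals.
Bcl6 second start: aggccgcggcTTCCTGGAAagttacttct

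Tbc1d4 was the most abundant of the 9 genes in both libraries, and Ascl2 was the least abundant. Ordered by mean TPM, which corrects for length, Tbc1d4 stood at 187 ± 61.6, Tox at 41.9 ± 18.6, Sostdc1 at 40.1 ± 53.4, Maf at 31.5 ± 2.02 and Cxcr5 at 14.5 ± 11.6 (SD, n = 2 technical libraries). Bcl6 followed at 13.2 ± 2.48, Tox2 at 10.15 ± 11.4, Il21 at 6.93 ± 8.41 and Ascl2 at 0.6 ± 0.849 (SD, n = 2). The 2 libraries of Tbc1d4 both stood above those of every other gene, and both of Maf stood above those of Cxcr5. All other neighbours in this order had overlapping values, so their order was within the difference between the libraries. With 1 TPM or more required in each library, 7 of the 9 were detected, against 24.7% of all GENCODE genes. The exceptions were Il21, just under the threshold at 0.98 in library 2, and Ascl2.

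**Figure D1:**
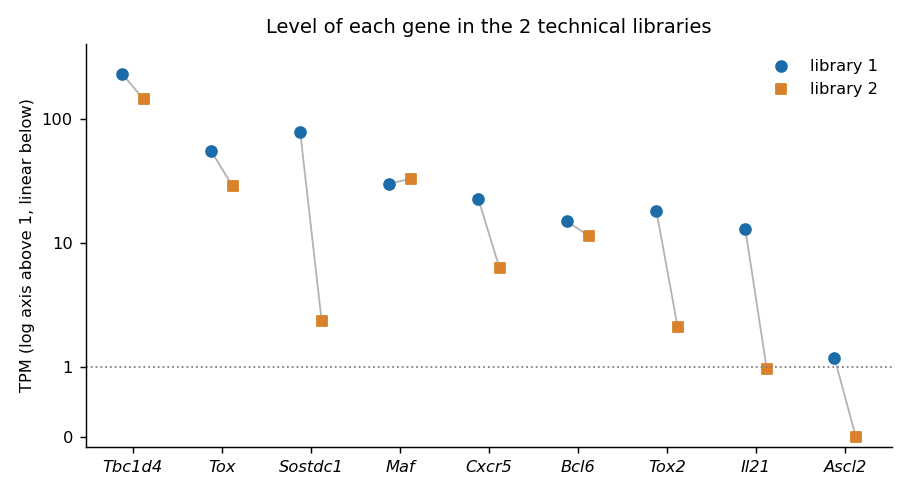
TPM of each of the 9 genes in library 1 (circles) and library 2 (squares), joined by a line. The axis is logarithmic above 1 and linear below, and the dotted line marks a TPM of 1. Sostdc1 stands at 77.8 in library 1 and 2.38 in library 2, while Maf stands at 30.1 and 32.9.

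Of the 9 genes, 8 had a larger share of counts in library 1 than in library 2, against 37.8% of the 24151 genes whose counts over both libraries summed to 10 or more, and 48.6% of the 12603 genes that reached 100, which include every member except Ascl2. A difference of 2-fold or more towards library 1 was seen in 5 of the 9, Sostdc1, Il21, Tox2, Cxcr5 and Ascl2, against 9.41% of the genes that reached 10 counts and 5.03% of those that reached 100. No member passed 2-fold towards library 2, against 32.8% and 9.03% of these genes. The same 5 members passed 2-fold towards library 1 in the small gene table, against 7.62% of its 14432 genes that reached 10 counts, and 0 towards library 2, against 19.3%. The median log2 ratio of the 9 genes, library 1 over library 2, was 1.74, and it was 1.74 with Ascl2 at 3 counts in library 2. The median was -0.23 over all genes that reached 10 counts and -0.01 over those that reached 100. Since the members were picked with these ratios in view, nothing is read from the comparison of the shares.

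**Figure D2:**
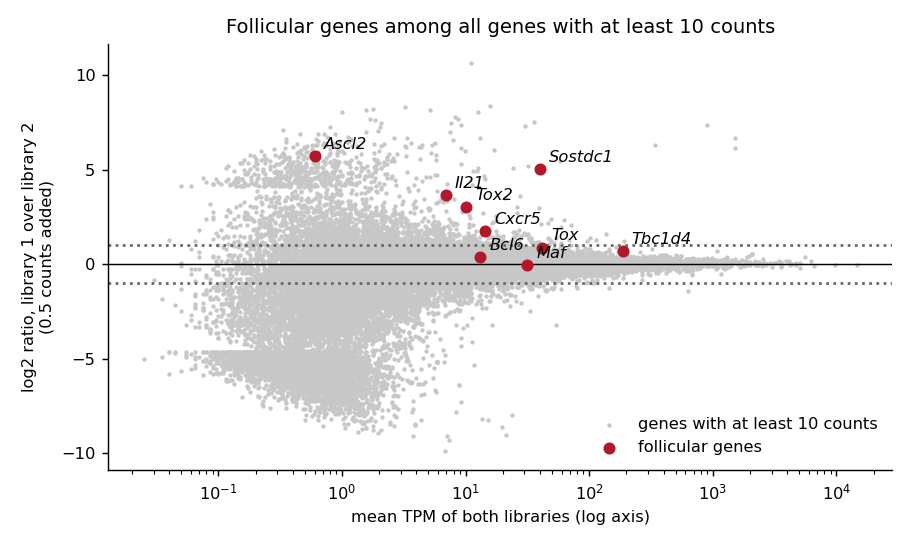
Log2 ratio of library 1 over library 2 (0.5 counts added) against mean TPM for all genes with at least 10 counts (grey) and the 9 follicular genes (red). Dotted lines mark 2-fold differences, and Sostdc1 (5.04), Il21 (3.65), Tox2 (3.02), Cxcr5 (1.74) and Ascl2 lie above the upper line. The value of Ascl2 depends on the count added.

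Bcl6 (ENSMUSG00000022508.5, chromosome 16, 23965052 to 23988852, minus strand, mm10), the repressor at the head of the programme, had 864 expected counts in library 1 and 547 in library 2. Its TPM was 14.9 in library 1 and 11.4 in library 2, near the middle of the genes at a TPM of at least 1 in each library (48.9 and 55.1 percentiles). The level was 1.31-fold higher in library 1 (log2 ratio 0.39, interval 0.23 to 0.55). In the small gene table, with 531 and 284 counts, the log2 ratio was 0.72 (interval 0.51 to 0.93), so the size of this difference depended on the table while its direction did not.

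Ascl2 (ENSMUSG00000009248.6, chromosome 7, 142966829 to 142969264, minus strand) was the lowest of the 9, with 31 counts in library 1 and 0 in library 2. Its TPM was 1.20 in library 1, at the 5.1 percentile of genes at a TPM of at least 1, and it was listed at 0 in library 2. A count of 0 allows up to 3 counts in the library, at which Ascl2 would be 8.56-fold higher in library 1. That bound leaves out counting error in library 1, and the exact binomial interval began lower, at 6.56-fold. In the small table it had 14 and 0 counts, a bound of 4.11-fold on the same floor, with an interval that began at a log2 ratio of 1.55. All reads were assigned to Ascl2-201, the longer of 2 coding transcripts.

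Maf (ENSMUSG00000055435.6, chromosome 8, 115682942 to 115707794, minus strand) was the only member that was not higher in library 1. It had 2474 and 2119 expected counts in library 1 and library 2, TPM values of 30.1 and 32.9, and a log2 ratio of -0.05 whose interval, -0.13 to 0.04, included 0. With TMM or DESeq2 scaling, which set the typical gene rather than the total equal between libraries, the log2 ratio was 0.05 or 0.06. In the small table the 291 and 155 counts gave 0.72 (interval 0.44 to 1.02), so the direction for Maf was not settled by these data. The small table held 11.8% and 7.3% as many Maf counts as the large table of library 1 and library 2, and 11.7% and 12.5% as many for Il21, while the other members with counts in both libraries held 25.5% to 63.8%. Of the small Maf proteins that Maf can pair with, Mafk had TPM values of 40.3 and 28.6 (log2 ratio 0.53) and Mafg had 13.55 and 20.4 (-0.46). The antisense gene Gm15655, which overlaps Maf, had 29.97 and 0 expected counts, and the reads of overlapping genes on opposite strands cannot be told apart where strand use is not stated.

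Tox and Tox2, the related HMG-box genes, differed between the libraries to different degrees. Tox2 (ENSMUSG00000074607.11, chromosome 2, 163203125 to 163324170, plus strand) had 785 counts in library 1 and 80 in library 2, with TPM values of 18.2 and 2.10. It was 8.13-fold higher in library 1 (interval 6.45 to 10.4), and 7.08-fold higher in the small table. Tox (ENSMUSG00000041272.11, chromosome 4, 6686353 to 6991557, minus strand) had 2826 and 1269 counts and TPM values of 55.05 and 28.7. It was 1.85-fold higher in library 1 (interval 1.73 to 1.97), just below the 2-fold mark, and 1.59-fold higher in the small table. Of the other family members, Tox4 had TPM values of 58.0 and 72.9, and Tox3 was near 0 at 0.16 and 0.67. Tox4 had a log2 ratio of -0.48, and its direction held in the small table (-0.34).

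Cxcr5 (ENSMUSG00000047880.15, chromosome 9, 44511787 to 44561877, minus strand), the follicle-homing receptor, had 881.8 expected counts in library 1 and 217.8 in library 2, and TPM values of 22.7 and 6.26. It was 3.35-fold higher in library 1 (interval 2.89 to 3.91) and 3.70-fold higher in the small table. Other receptors that place T cells differed less. In a list of 11 such genes 0 passed 2-fold towards library 1, against 9.41% of all genes that reached 10 counts. The ligand gene Cxcl13, with 16 and 30 counts, was the 1 that passed it towards library 2, against 32.8%. Cxcr4, which holds cells in the dark zone of germinal centres, came nearest to Cxcr5 at 1.90-fold higher in library 1 (TPM 25.3 and 13.2). Ccr7, the receptor for the T cell zone, had TPM values of 464 and 459. Cxcr3 (81.5 and 126) and Cxcr6 (138 and 235), receptors of effector T cells, had log2 ratios of -0.61 and -0.75. The adhesion gene Selplg, which T cells use to enter tissues from the blood, had 711 and 822 TPM and a log2 ratio of -0.22.

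Il21 (ENSMUSG00000027718.8, chromosome 3, 37222759 to 37232636, minus strand) had 615 expected counts in library 1 and 40 in library 2, and TPM values of 12.9 and 0.98. It was 12.7-fold higher in library 1, with an interval of 9.25 to 18, and the small table, with 72 and 5 counts, also gave 12.7-fold. Among genes of the pathway that the cytokine acts through, its receptor chain Il21r had TPM values of 193 and 186, the shared chain Il2rg had 1251 and 1404, and the transducers Jak1 (525 and 492) and Stat3 (209 and 191) had log2 ratios of 0.03 and 0.02. The feedback inhibitor Socs1 had 57.1 and 70.75 TPM. Of the 8 genes of the Il21 receptor pathway, 0 were at least 2-fold different, against 14.1% of all genes that reached 100 counts, as these did, and the largest ratio was that of Socs3, a related inhibitor, 1.49-fold higher in library 1.

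Sostdc1 (ENSMUSG00000036169.6, chromosome 12, 36314139 to 36318452, plus strand) had the largest difference among the members with counts in both libraries. It had 2237 counts in library 1 and 56 in library 2, TPM values of 77.8 and 2.38, and was 33.1-fold higher in library 1 (interval 25.4 to 44). In the small table the 606 and 22 counts gave 24.3-fold. Sostdc1 stood at the 83.2 percentile of genes at a TPM of at least 1 in library 1 and at the 29.0 percentile in library 2. Among receptors and mediators of the Wnt and BMP pathways, 0 of 8 genes passed 2-fold towards library 1. Of all genes that reached 10 counts, 9.41% did. The receptor genes Lrp4 (8 and 65 counts) and Lrp5 (11.04 and 42.04 counts) were the 2 that passed it towards library 2. In that direction 32.8% of all genes that reached 10 counts passed it. Lrp6, a Wnt coreceptor, had TPM values of 21.2 and 28.6, and beta-catenin (Ctnnb1), the Wnt effector, had 133 and 167. The BMP receptors Bmpr2 (0.51 and 1.02) and Bmpr1a (5.20 and 6.50) were low, and the BMP effector Smad1 had 21.7 and 22.3.

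Tbc1d4 (ENSMUSG00000033083.16, chromosome 14, 101442360 to 101609191, minus strand) had 11318 counts in library 1 and 5804 in library 2, with TPM values of 231 and 143 at the 95.4 and 93.4 percentiles. It was 1.62-fold higher in library 1 (interval 1.57 to 1.67) and 1.32-fold higher in the small table. Its close relative Tbc1d1 was 1.25-fold higher in library 1 (72.3 and 50.35 TPM). The Rab proteins Rab10 (134 and 138) and Rab8a (127.5 and 165) and the kinase Akt1 (144 and 148) were at similar or lower levels in library 1. The glucose transporter gene Slc2a3 had 23.3 and 38.1 TPM and a log2 ratio of -0.86. Of 8 genes around Tbc1d4, 0 were at least 2-fold different between the libraries, against the same 14.1%.

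**Figure D3:**
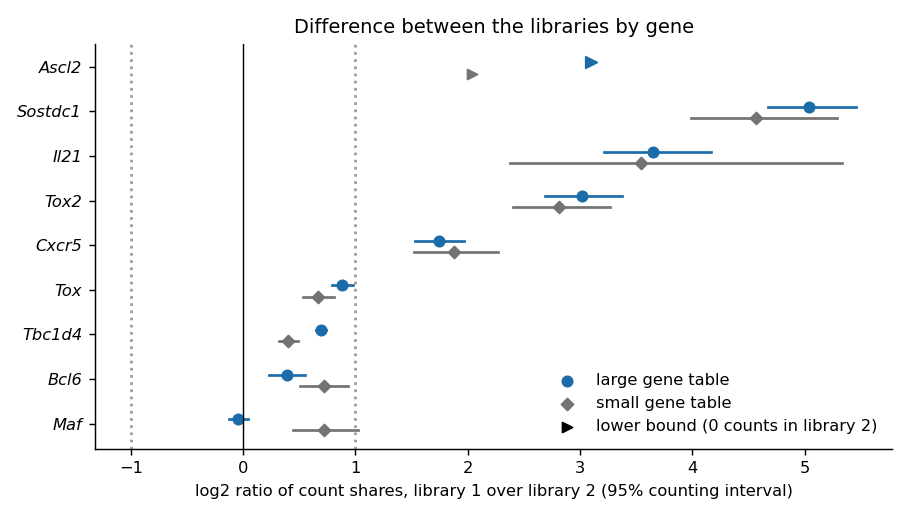
Log2 ratio of count shares, library 1 over library 2, for each gene in the large gene table (blue circles) and the small gene table (grey diamonds), with 95% counting intervals as bars. Triangles are lower bounds for Ascl2, which had 0 counts in library 2, and dotted lines mark 2-fold. Sostdc1, Il21, Tox2, Cxcr5 and Ascl2 lie above 2-fold in both tables, and Maf lies at -0.05 in the large table and 0.72 in the small table.

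The transcripts of the 9 genes differed in how far the coding form accounted for the level. For Sostdc1, Tox2, Ascl2 and Maf every transcript with reads was annotated as protein-coding. Tbc1d4 stood apart, since its 4 coding transcripts together held 1.6% of its TPM in library 1 and 1.5% in library 2. The retained-intron transcript Tbc1d4-208, which spans the end of the gene (101442368 to 101463223), held 68.45% and 69.58% of the TPM, and Tbc1d4-203, annotated for nonsense-mediated decay, held 29.8% and 28.8%. Of the 3823 bases of Tbc1d4-208, 96.4% also belong to exons of coding transcripts, and all 1049 bases of Tbc1d4-203 do. These reads were therefore assigned to transcripts made mostly of sequence that coding transcripts share, and the split among transcripts was the authors' estimate. The longest coding transcript, Tbc1d4-209, has 6483 bases, against an effective length of 2958 for the gene in library 1, so the TPM of Tbc1d4 depends on this split.

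Bcl6 was mainly its coding transcript Bcl6-201, at 14.6 TPM in library 1 and 10.03 in library 2. The retained-intron transcript Bcl6-202 took 2.06% of the TPM in library 1 and 12.3% in library 2, with 19.8 and 74.1 expected counts. Counted on the coding transcript alone, Bcl6 was 1.48-fold higher in library 1 (log2 ratio 0.56, interval 0.40 to 0.73). The retained-intron form went the other way, with a log2 ratio of -2.15 (interval -2.95 to -1.43). Il21 showed the opposite pattern. Its retained-intron transcript Il21-203 took 19.8% of the TPM in library 1, with 96.6 counts, and was at 0 in library 2, where all 40 counts went to the coding Il21-201. On coding transcripts alone Il21 had 518.6 and 40 counts and a log2 ratio of 3.41 (interval 2.96 to 3.93). The antisense gene Gm12534, which overlaps Il21, had 7.83 and 0 counts.

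Tox was 67.3% coding in library 1 and 73.1% in library 2. Its retained-intron transcript Tox-204 had 216 counts in library 1 and 20.25 in library 2, and the other, Tox-203, had 77.97 and 103. For Cxcr5, Cxcr5-201 took 83.85% of the TPM in library 1 and 100% in library 2, but its count in library 1, 809, carried a posterior SD of 36.4 in the authors' tables. Of the 5 Cxcr5 transcripts, 4 have most of their bases in common with other coding ones. The posterior SD of the whole Cxcr5 gene was 2.44. The plus-strand gene Bcl9l (44482825 to 44511896) overlaps the end of Cxcr5 and had 1594 and 1164 counts. Tox2-202, which starts at the first promoter, took 87.3% and 89.0% of the Tox2 TPM. Maf was split between Maf-202, a single-exon form of 6360 bases, at 17.1 TPM in library 1 and 16.5 in library 2, and the 3-exon Maf-201, at 13.0 and 16.5.

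**Figure D4:**
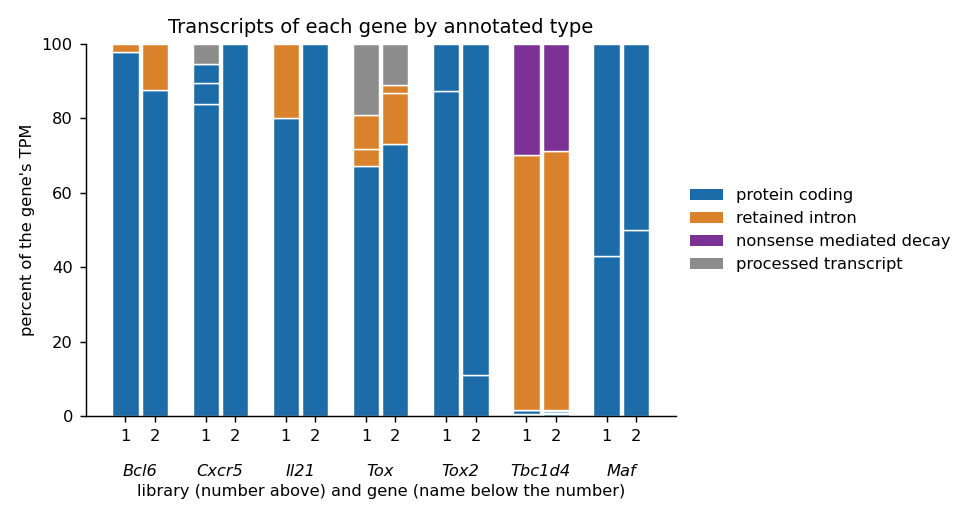
Percent of each gene's TPM by annotated transcript type, with library 1 left of library 2 for each gene and white lines between transcripts of 1 type. Tbc1d4 is almost wholly retained-intron and nonsense-mediated-decay transcripts in both libraries, and the retained-intron share of Bcl6 is 2.06% in library 1 and 12.3% in library 2. Sostdc1 and Ascl2, with coding reads only, are left out.

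Other genes of the follicular programme are given beside the share of all genes that reached 100 counts and were at least 2-fold different in either direction, 14.1%. A count near that share says nothing particular of a list. Of 15 receptors and signalling genes of follicular helper cells, all were detected, 1 passed 2-fold towards library 1 and 0 towards library 2, and the median log2 ratio was 0.21. That gene was Pdcd1, which encodes the inhibitory receptor PD-1 of follicular T cells, at 148 TPM in library 1 and 57.1 in library 2. In the small table its log2 ratio was 0.80, below 2-fold. Btla (85.8 and 50.2) and Il6ra (56.1 and 34.9) were 1.74-fold and 1.66-fold higher in library 1, while Slamf6, a receptor for contact with B cells, had 427 and 382 and Tnfrsf4, the costimulatory receptor OX40, had 312 and 233. Of 19 transcription factors of the programme, all were detected, and Pou2af1 was the 1 at least 2-fold higher in library 1 (22.4 and 11.0 TPM, 2.17-fold), with a log2 ratio of 0.89, below 2-fold, in the small table. The E protein gene Tcf12 was 1.57-fold higher in library 1, and Ets1, among the most abundant, had 769 and 844 TPM. Batf, an AP-1 factor needed by follicular helper cells, was 1.75-fold higher in library 1, at 182 and 107 TPM. Tcf7, which acts before Bcl6, had 1107 and 999 TPM and changed sign in the small table, where its log2 ratio was -0.15.

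Of 15 genes that oppose the follicular fate, 6 had a larger share of counts in library 1, against 48.6% of all genes that reached 100 counts, as these 15 did. Their median log2 ratio was -0.15, between the -0.23 of all genes that reached 10 counts and the -0.01 of those that reached 100. Among those higher in library 1 were Socs3 (0.58) and Stat5a (0.25), by log2 ratio. None was at least 2-fold higher in library 1, against 5.03% of all genes that reached 100 counts. In the other direction 1, Tbx21 (T-bet, 10.25 and 40.8 TPM), was at least 2-fold higher in library 2, against 9.03%. Prdm1 encodes Blimp-1, a repressor that opposes Bcl6 and is opposed by it, and had TPM values of 5.96 and 9.83 with a log2 ratio of -0.68. Runx3 had 25.5 and 44.6 with -0.72, and Id2, an inhibitor of E proteins, had 544 and 805 with -0.54. Klf2, which keeps T cells out of follicles, had 443 and 563 with -0.33, and its target S1pr1, the receptor for exit from lymphoid tissue, had 340 and 384 with -0.16. Of 10 genes of corepressors that work with Bcl6, 0 were at least 2-fold different, against 14.1% of all genes that reached 100 counts. The most abundant were Ncor1 (333 and 315 TPM), Cul3 (165 and 187) and Mta3 (85.2 and 73.0). Hdac7 had a log2 ratio of 0.43, and Bcorl1, with 43 and 65 counts, had -0.86.

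The cells carried the defining genes of regulatory T cells in both libraries. Foxp3, the lineage factor of regulatory T cells, had TPM values of 87.27 and 87.4. Of 8 regulatory T cell genes all were detected and 0 were at least 2-fold different, against 14.1% of all genes that reached 100 counts. Their summed TPM was 1628 in library 1 and 1478 in library 2. The most abundant were Izumo1r (481 and 342 TPM), Tnfrsf18 (344 and 369) and Capg (294 and 319), followed by Ikzf2 (214 and 185). Of 7 general T cell genes all were detected, with a summed TPM of 11210 and 10930, and the T cell receptor genes Trbc2 (3670 and 3473) and Trac (2957 and 2903) and the kinase gene Lck (1220 and 1237) were the highest. Of the CD3 chains, Cd3e had 1122 and 1046 TPM and Cd3d had 594 and 617. In a list of 10 genes of follicular regulatory cells, Il10 was the 1 at least 2-fold higher in library 1, with 109 and 35 counts. Its small-table log2 ratio was 0.53, below 2-fold. Il1rn, with 0 and 19 counts, was the 1 at least 2-fold higher in library 2. Of all genes that reached 10 counts, 9.41% passed 2-fold towards library 1 and 32.8% towards library 2. Il1r2, a decoy receptor associated with follicular regulatory cells, had 8.81 and 9.24 TPM. Ctla4 was 1.30-fold higher in library 1 at 84.1 and 66.55 TPM, and Nfatc1, which follicular regulatory cells need, was 1.31-fold higher at 239 and 189.

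**Figure D5:**
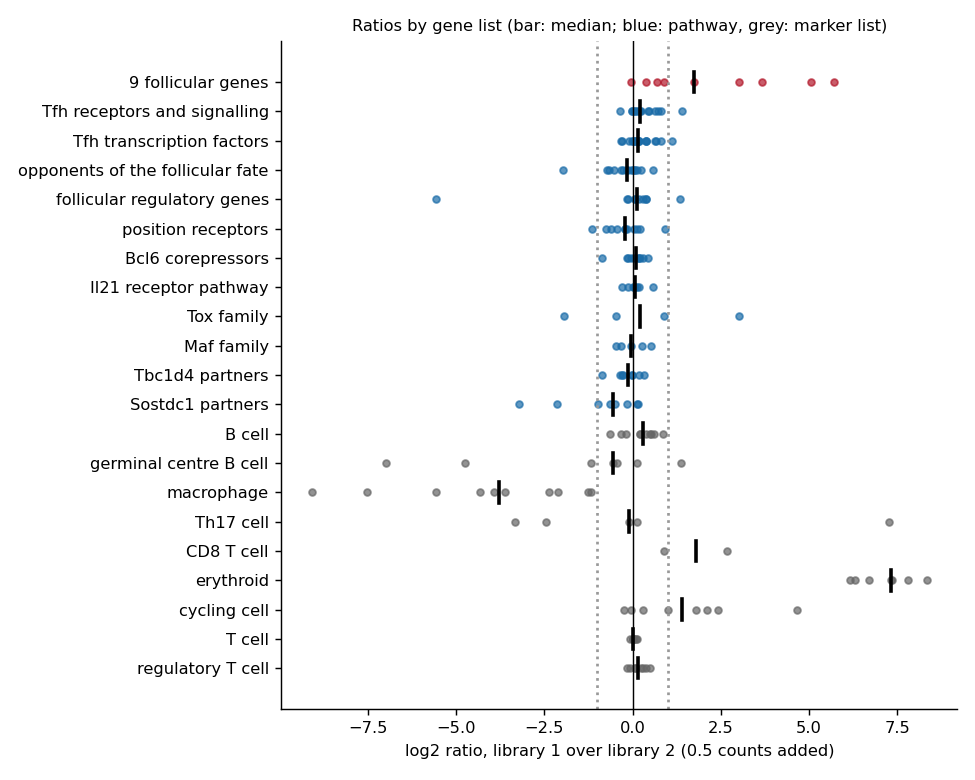
Log2 ratio of library 1 over library 2 (0.5 counts added) for the 9 follicular genes (red), the members of 11 pathway lists (blue) and 9 marker lists (grey), for genes with at least 10 counts, with the median of each list as a black bar. The 9 genes have a median of 1.74, regulatory T cell markers 0.17, B cell markers 0.30, macrophage markers -3.78 and erythroid markers 7.33. Points of genes with 0 counts in 1 library depend on the count added, and the Tox and Maf family lists hold members of the 9.

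Transcripts of other cells differed between the libraries as well, and their part in the differences of the 9 genes was not tested. In a bulk library, fewer cells of a type and less RNA per cell cannot be told apart. B cells express Cxcr5, and germinal centre B cells express Bcl6. Of 10 B cell markers 9 were detected and 0 were at least 2-fold different. Of all genes, 42.3% of those that reached 10 counts and 14.1% of those that reached 100 were. The summed TPM of the markers was 212 in library 1 and 161 in library 2, a ratio of 1.32. The most abundant were Cd79b (65.2 and 42.8) and Cd79a (56.3 and 40.6), followed by Cd22 (20.2 and 22.8). The largest B cell ratio was that of Fcer2a, 1.81-fold higher in library 1, and Ebf1 went the other way with a log2 ratio of -0.63. Of 8 germinal centre B cell markers 3 were detected. Among the defining ones Gcsam had 0 and 52 counts and Rgs13 had 0 in both, and the summed TPM was 88.2 and 100.1. That sum came mostly from Fas (55.4 and 52.7), Neil1 (16.0 and 24.0) and S1pr2 (15.5 and 21), of which T cells also express Fas and S1pr2.

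Macrophages express Maf, and all 10 macrophage markers were at least 2-fold higher in library 2, against 32.8% of all genes that reached 10 counts. In the small table Cd68 and Adgre1 had log2 ratios of -0.94 and -0.93, below 2-fold. C1qc and Spic were at 0 in library 1. Vcam1 (0.75 and 17.75), C1qb (1.10 and 17.45), C1qa (3.47 and 15.4) and Csf1r (0.16 and 8.60) gave most of the rest. Of 6 markers of Th17 cells, which also express Maf, 2 were detected and the summed TPM was 8.76 and 6.88, a direction that rested on Il1r1 (4.04 and 0.02). Without it the sum was 4.72 and 6.86. Ccr6 had 2.77 and 2.46 TPM, while Il17a (1 and 12 counts), Il17f (3.62 and 18.3) and Il23r (0 and 9) had more counts in library 2. For Il1r1, 276 counts in library 1 against 1 in library 2 gave a log2 ratio of 7.25 with an interval of 5.35 to 13.15. Both CD8 T cell markers were higher in library 1, against 48.6% of all genes that reached 100 counts, as these did. Cd8b1 had 24.25 and 13.1 TPM and Cd8a had 2.73 and 0.37, and only Cd8a passed 2-fold. Cycling genes were at 280 and 222 summed TPM. Of the 8, 4 were at least 2-fold higher in library 1, against 5.03% of all genes that reached 100 counts, as these did. Among the 4 were Ccnb1 at 26.3 and 2.00, Birc5 at 18.9 and 2.92 and Mki67 at 8.24 and 2.40. Top2a went the other way, at 6.5 and 9.24 TPM with a log2 ratio of -0.25. Pcna (144 and 147.5) and Mcm2 (62.5 and 50.1) were closer. All 7 erythroid markers passed 2-fold towards library 1, against 5.03% of all genes that reached 100 counts, as these did. The globin genes Hba-a2 (2993 and 29.3), Hbb-bs (2971 and 44.6) and Hba-a1 (1787 and 10.95) made up most of their summed TPM, and the erythroid factor Klf1 had 16.5 and 0.05. In the large table the log2 ratios of Hba-a2, Hbb-bs and Hba-a1 were 6.69, 6.17 and 7.36. In the small table they were 2.28, 2.61 and 1.57, so the direction held while the size depended on the table.

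The protein-coding genes nearest to Sostdc1 in log2(TPM + 1) of the 2 libraries were Alas2 (59.4 and 1.11 TPM), Car2 (113 and 4.04) and Cd24a (50.8 and 4.09), at distances of 0.78 to 0.846. Alas2 is one of the erythroid markers. Nearest to Ascl2 were Odf3l2 (1.21 and 0), Gm45208 (1.19 and 0) and Olfr1138 (1.22 and 0), with 24, 13.7 and 18 counts in library 1. Over 2 libraries such nearness describes a level and a ratio only.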

How the data were processed

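Polyadenylated RNA of 2 technical libraries was analysed. The large gene and transcript tables hold expected counts, TPM, FPKM, the percent of each gene in each transcript, and posterior SDs that the authors derived from transcriptome alignments (mm10, GENCODE M21), per the deposited description and file headers. In the deposited tables TPM was scaled to a common sum per library and FPKM by total reads, both by effective length. The deposited small tables hold whole-number counts from an mm10 alignment with GENCODE M4, summing to 7911181 in library 1 and 6972139 in library 2. Of the aligner, the quantifier and strand use, the sources used here give nothing. Effective length was length minus 49 for every row above 0.

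Rows that name no GENCODE gene held 0.201% of expected counts in library 1 and 0.235% in library 2, and were left out. Each gene's counts were divided by the total of the library, and library 1 was set over library 2, with 0.5 counts added for log2 values. A 2-fold difference was the mark for counting genes. Expected counts were rounded to whole numbers for the intervals. A count of 0 allows 3 counts, which is a CPM of 0.113 for library 1 and 0.136 for library 2. Ratios and intervals were tested on simulated data. Alternatives used edgeR 4.0.16 (TMM), DESeq2 1.42.0 (R 4.3.3), TPM or FPKM with a pseudocount of 1, 1 count added, the small tables and coding transcripts. The members and all 20 lists were chosen with earlier results of these data known. Genes named from a list were its 3 most abundant and up to 3 with the largest ratio among those with at least 100 counts, a few of which are not reported here. The genes named outside this rule were chosen after their values were seen, and so were the sum of Th17 markers without Il1r1 and the count of members higher in library 1 by any amount under each alternative. Likeness was measured for Ascl2 and Sostdc1, the 2 members with the largest ratio after 0.5 counts were added. The bound for Ascl2, 8.56-fold at 3 counts in library 2, lies below the ratio of Il21. Likeness was the Euclidean distance in log2(TPM + 1).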

Additional observations from a re-analysis of the deposited data

How the results depend on the processing

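The count of 5 genes at least 2-fold higher in library 1 was 5 with TMM or DESeq2 scaling, the small table, TPM with a pseudocount of 1, 1 count added and coding transcripts, 4 with FPKM and a pseudocount of 1, where Ascl2 gave 0.81, and 7 at a 1.5-fold mark. No setting put a member at least 2-fold higher in library 2. The count higher in library 1 by any amount was 8, and 9 with TMM, DESeq2 or the small table, because of Maf. Of 63 log2 ratios of single genes under these alternatives, 43 stayed within the counting interval and 20 moved out of it. The 7 detected genes were 8 at a TPM of 0.1, 5 at a TPM of 5, and 7 to 9 in a single library. The share of all genes at least 2-fold different was 42.3% with at least 10 counts, 14.1% with at least 100, 37.8% with no filter and 42% with TMM. TMM and DESeq2 raised the median log2 ratio by 0.10 and 0.11. The most abundant transcript was unchanged for 9 of 9 genes by counts. In library 2 alone it was the same for 7, with Ascl2 at 0 and Maf tied between 2 transcripts. Ratios need both libraries, so leaving 1 out gave no ratio. No paired analysis was possible because the 2 libraries form 1 group. In library 2, the counts of Ascl2 (0), Il21 (40), Sostdc1 (56) and Tox2 (80) give the widest counting intervals.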
